A study of Mus musculus with 9 samples.

Results

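The genes described are those of the cytosolic ribosome: protein-coding mouse genes whose symbol is Rpl or Rps followed by a number and a suffix of at most 2 characters, with Rplp0, Rplp1, Rplp2 and Rpsa. Rps6k kinase genes and pseudogenes were left out. This gave 85 members of 55401 genes in the count table, 52 of the large and 33 of the small subunit. Of these, 77 are canonical subunits and 8 are paralogues, second genes that encode a close relative of a canonical protein. Rpl3l, Rpl10l and Rpl39l had 0 to 2 counts per library and were not tested, which left 82 tested members. The members lie on 19 chromosomes, with 14 on chromosome 7 and 4 on the X chromosome. The rule did not use expression.

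RNA-seq was done on XEN cells, stem cells of the extra-embryonic endoderm, from a female line of a cross between Mus musculus molossinus and Mus musculus. WT_EV (n = 3) was labelled wild type, DXp (n = 2) lacked a segment upstream of Xist on the paternally inherited X, DXp_DXm (n = 2) lacked it on both X chromosomes, and WT_clone (n = 2) was wild-type clones. The sources used here do not say what EV stands for or where the deletion ends. The titles call both DXp libraries D1 and both DXp_DXm libraries D3. If these name single clones, genotype and clone cannot be told apart. No label ties the WT_EV libraries to separate cultures. The p-values therefore cover the spread between the samples at hand, which may be technical.

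The cytosolic ribosome joins a small subunit, which reads the mRNA, to a large subunit, which forms the peptide bond. Each subunit holds ribosomal RNA and a set of proteins that cells make in matched amounts, since unpaired ribosomal proteins are degraded. The mRNAs of these proteins are short and abundant and start with a pyrimidine tract (the TOP motif), through which mTOR signalling controls their translation. They are polyadenylated.

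The WT_EV libraries held 14352719 to 19833044 counts, and each deletion library between 24586135 and 29335803. Levels are CPM, the counts per 1e+06 of the library's total after TMM scaling. Xist had 689 to 1562 CPM in WT_EV, 15447 to 17314 in DXp and 5460 to 8951 in DXp_DXm. The deleted segment lies upstream of Xist, so these levels do not check the genotypes. Of 16 extra-embryonic endoderm markers, 15 reached a mean of 1 CPM in each of these 3 groups, and the summed level of 8 pluripotency, 8 trophoblast and 8 fibroblast markers was at most 4.86 CPM per list in any library. RNAs that lack a poly(A) tail separated the libraries: each WT_EV library had 157188 to 255029 counts of Rn7sk, where the deletion libraries had 2 to 7, and replication-dependent histone genes took 0.984 to 2.47% of WT_EV counts, where the deletion libraries had 0.00129 to 0.00686%. The part of this difference in the results below was not tested.

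In 300-base windows around the annotated starts (RefSeq, GRCm38.p6; 250 bases before to 50 after), 65 of the 85 members had an entry. The sequence CTTCCG, read on either strand, was present in 43 of the 65 (66.2%) and in 36.3% of 9312 other protein-coding genes. CTCTTTC, on either strand, was present in 18 (27.7%) and in 8.44% of the others. A run of at least 8 pyrimidines that opens with C, on the gene's strand from 10 bases before to 50 after the start, was present in 45 members (69.2%) and in 18.1% of the others. Such matches describe the letters and are not sites. The windows of 30 bases before to 30 after the start follow for members at the 2 ends of the changes described below, with CTTCCG and CTCTTTC on either strand in capitals.
Rpl22l1, plus strand of chr3:28805478-28805537: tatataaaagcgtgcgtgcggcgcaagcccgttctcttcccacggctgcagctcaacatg
Rpl39, minus strand of chrX:37085193-37085252: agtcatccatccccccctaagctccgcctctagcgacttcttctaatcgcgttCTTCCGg
Rpl5, plus strand of chr5:107900498-107900557: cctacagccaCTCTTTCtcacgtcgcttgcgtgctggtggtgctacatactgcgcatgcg
Rpl18, plus strand of chr7:45718041-45718100: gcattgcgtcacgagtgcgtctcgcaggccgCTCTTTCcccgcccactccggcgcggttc
Rps28, minus strand of chr17:33824533-33824592: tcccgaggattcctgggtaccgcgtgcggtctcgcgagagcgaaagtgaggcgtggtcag
The first 3 genes were called higher in both deletion groups, Rpl5 only without the offsets described below, and the last 2 were called lower. The 300-base window of Rpl22l1 held neither sequence. In the 300-base windows CTCTTTC occurred in both sets (Rpl5 and Rpl18), and so did CTTCCG (Rpl39 and Rps28). Windows of Rplp1 and Rpl36, whose changes without the offsets were lower still, are not shown.

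Ribosomal protein genes took a smaller share of the counts in the deletion libraries. The 85 members held 5.68, 4.88 and 4.38% of all gene counts in WT_EV replicates 1, 2 and 3. The share was 0.837 and 1.03% in the DXp libraries and 1.60 and 1.47% in the DXp_DXm libraries. No WT_EV library overlapped a deletion library. The means were 4.98 ± 0.658% (SD, n = 3), 0.932 ± 0.135% (n = 2) and 1.53 ± 0.088% (n = 2). For each deletion group against WT_EV the two-sided exact permutation p was 0.2, the smallest that 3 against 2 libraries allow. Among protein-coding counts alone the means were 5.60 ± 0.677%, 0.979 ± 0.130% and 1.60 ± 0.0935%. The bars of shares by library also show the subunits: small subunit genes held 2.03 ± 0.183% in WT_EV (n = 3), 0.314 ± 0.0994% in DXp (n = 2) and 0.708 ± 0.119% in DXp_DXm (n = 2).

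**Figure D1:**
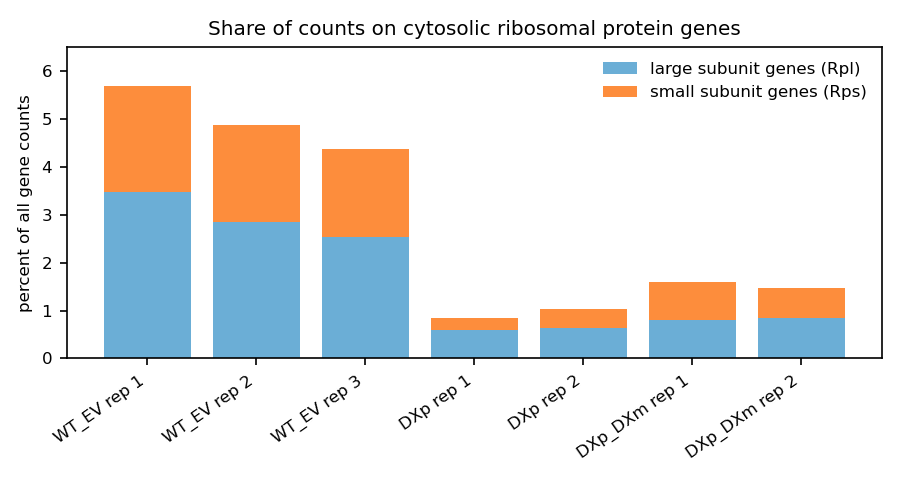
Percent of all gene counts on the 85 ribosomal protein genes in each of the 7 libraries, stacked by subunit (blue, large; orange, small). The 3 WT_EV libraries stand at 4.38 to 5.68% and the 4 deletion libraries at 0.837 to 1.60%.

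The balance among the members also differed, in counts that were not adjusted for GC content. The 5 members with the most counts held 16.6 ± 0.179% of member counts in WT_EV (SD, n = 3), 38.9 ± 0.919% in DXp (n = 2) and 35.4 ± 0.768% in DXp_DXm (n = 2). Rpl5 alone, a large subunit protein, held 1.80 ± 0.163%, 16 ± 2.88% and 8.73 ± 2.26%. Levels can be compared between genes only per length, here as CPM per kb of the deposited gene length. The SD of log2 CPM per kb over the 77 canonical members was 1.49 ± 0.0522 in WT_EV, 1.90 ± 0.108 in DXp and 2.02 ± 0.0859 in DXp_DXm.

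The order of the levels per kb, not adjusted for GC content, changed with the group. In a fit with offsets for GC content and length, described below, Rpl5 changed by -0.13 in DXp and -0.23 in DXp_DXm from WT_EV. Without them it changed by 1.2 and 0.89. For Rplp1 the changes were -2.62 and -3.50 with the offsets, and -6.59 and -7.12 without. How the order would stand with the offsets was not tested. In WT_EV the highest member was Rplp1, at 2078 ± 1088 CPM per kb (SD, n = 3), a protein of the stalk. It was followed by Rps29 at 1000 ± 101 (named after its value was seen) and Rpl23a at 987 ± 237, which differed from each other by less than their SD. In DXp the highest was Rpl5, at 448 ± 49.1 CPM per kb (n = 2), followed by Rps27a at 380 ± 151, a gap within the SD of Rps27a. In DXp_DXm the highest was the small subunit gene Rps3a1, at 708 ± 134 (n = 2), followed by Rps27a at 610 ± 43.2, a gap within the SD of Rps3a1. Rplp1 stood at 21.6 ± 8.44 CPM per kb in DXp and 14.9 ± 5.32 in DXp_DXm. Among the 77 canonical members, Rps10, Rpl24 and Rps19 had the lowest mean levels over the 7 libraries, at 2.48, 2.95 and 29.3 CPM per kb. For Rps10 and Rpl24 how the reads shared with near-identical copies were counted is not given, so their low levels are uncertain.

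Against WT_EV, most ribosomal protein genes fell in DXp. A gene was called at an adjusted p under 0.05 in edgeR's quasi-likelihood test, adjusted by Benjamini-Hochberg over all 15331 genes tested. Of the 82 tested members 73 were called lower (89%) and 4 higher (4.88%). Of all genes tested, 40.1% were called lower and 32.2% higher. The members' median log2 change was -3.03, where all tested genes had a median of -0.35. Of the members, 69 were at least 2-fold lower, 42 at least 8-fold and 11 at least 32-fold. The share of all genes past these cuts is not given. The lower quartile of the log2 changes was -4.46 in the members and -2.73 in all tested genes. In 73 members both DXp libraries lay below all 3 WT_EV libraries, in 7 above, and in 2 the groups overlapped. Of all genes tested, 45.2% lay below in this way and 36.8% above. The large subunit (42 of 49 lower, median -2.98) and the small subunit (31 of 33 lower, median -3.06) had similar medians, and the difference between them was not tested. A second fit added offsets for GC content of the longest transcript and for the deposited gene length in each library. Its values are given below for some of the named members, and where they are missing a change may still depend on it.

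In DXp_DXm against WT_EV, 60 of the 82 members were called lower (73.2%) and 4 higher (4.88%). Of all genes tested, 36.0% were called lower and 30.9% higher. The median log2 change was -2.26 in the members and -0.15 in all tested genes. There, 57 members were at least 2-fold lower, 32 at least 8-fold and 9 at least 32-fold. The lower quartile was -4.18 in the members and -2.26 in all tested genes. In 65 members both DXp_DXm libraries lay below all WT_EV libraries and in 9 above, where 41.8 and 36.4% of all genes did. Both deletion groups were compared with the same 3 WT_EV libraries, so the 2 sets of values are not independent. The plot of all members' changes shows them side by side.

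**Figure D2:**
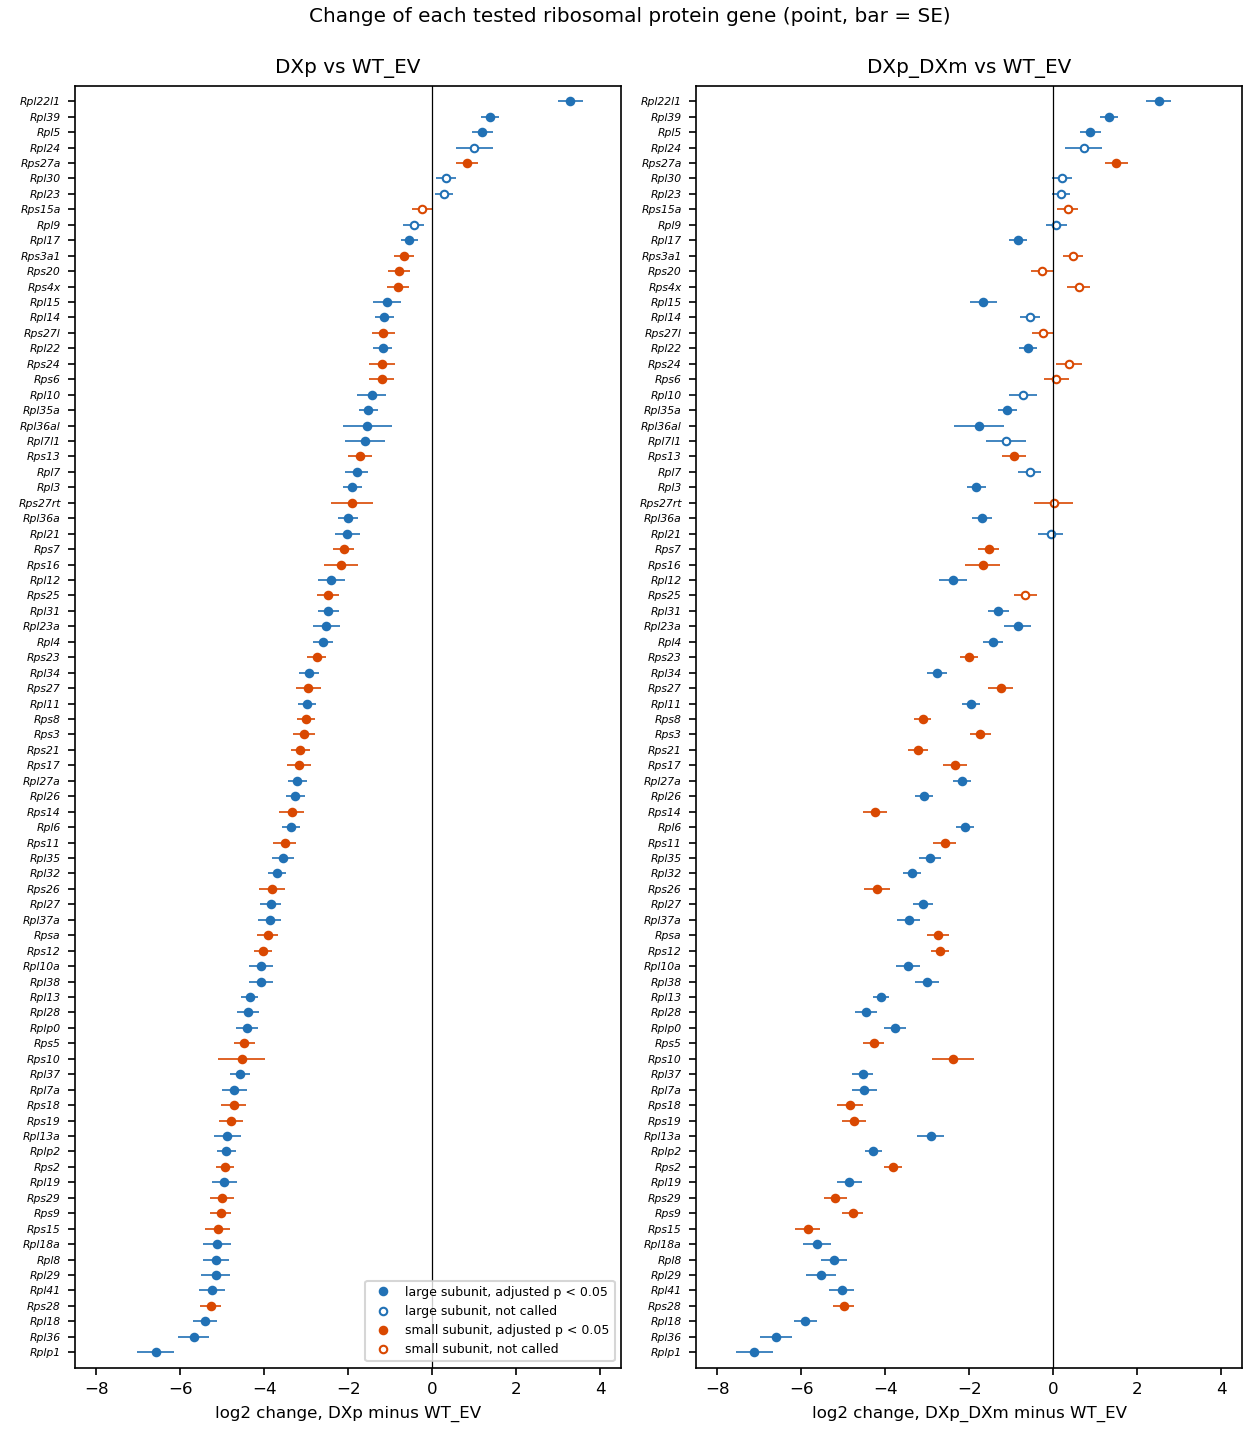
Log2 change of each of the 82 tested members (point) with its SE (bar) in DXp minus WT_EV (left) and DXp_DXm minus WT_EV (right), ordered by the left panel and coloured by subunit. Filled points passed an adjusted p of 0.05. The lowest member is Rplp1 in both panels, at -6.59 and -7.12, and the highest is Rpl22l1, at 3.29 and 2.52.

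The stalk of the large subunit recruits the factors that drive elongation. Without the offsets, its acidic protein gene Rplp1 had the lowest change of any tested member in both deletion groups. It lies on the minus strand of chromosome 9 at 61913284 to 61914542 in GRCm38. Rplp1 had 1651, 836 and 623 CPM in WT_EV, 13.8 and 7.80 in DXp, and 5.56 and 9.31 in DXp_DXm. Every deletion library was far below every WT_EV library. Rplp1 was 96.4-fold lower in DXp, at -6.59 on the log2 scale (95% interval -7.56 to -5.62, SE 0.43, edgeR adjusted p 1.05e-05). In DXp_DXm it was -7.12 (SE 0.44, adjusted p 1.38e-05), 139-fold lower. Rplp0, the stalk base, had 1319, 1132 and 871 CPM in WT_EV, 55.8 and 48.6 in DXp, and 65.6 and 96.7 in DXp_DXm. Its log2 change was -4.41 (SE 0.26) in DXp and -3.77 (SE 0.26) in DXp_DXm, both called. Rplp2, the partner of Rplp1, changed by -4.90 (SE 0.22) and -4.28 (SE 0.21) on the log2 scale. Rpl12, which sits at the base of the stalk, fell less without the offsets. It had 765, 678 and 715 CPM in WT_EV, 83.9 and 189 in DXp, and 114 and 162 in DXp_DXm. Its changes were -2.40 (SE 0.33) and -2.38 (SE 0.33). In the fit with offsets they were -1.49 (SE 0.30) and -1.76 (SE 0.30), where Rplp2 was at -2.27 and -1.99 (SE 0.20 in both).

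Beside Rplp1, the lowest changes in DXp without the offsets were those of Rpl36, Rpl18 and Rps28. Rpl36 and Rpl18 are large subunit proteins and Rps28 a small one. Rpl36 had 256, 265 and 245 CPM in WT_EV, 6.19 and 3.82 in DXp, and 1.41 and 3.85 in DXp_DXm. Its log2 change was -5.68 (SE 0.37, adjusted p 6.29e-06) and -6.60 (SE 0.38, adjusted p 8.34e-06), which the offsets moved to -1.08 and -2.22, both still called. Rpl18 had 688, 543 and 458 CPM in WT_EV, 16.2 and 10.3 in DXp, and 8.38 and 10.4 in DXp_DXm, with changes of -5.41 (SE 0.28) and -5.90 (SE 0.28). In the fit with offsets Rpl18 was at -3.84 and -4.69, both called. Rpl36 and Rpl18 were low in all 4 deletion libraries. Rps28 had 480, 385 and 331 CPM in WT_EV, 12 and 8.69 in DXp, and 11.7 and 13.3 in DXp_DXm, with changes of -5.27 (SE 0.25) and -4.99 (SE 0.25). In DXp_DXm the fourth lowest was Rps15, a small subunit protein near the decoding site, at -5.85 (SE 0.29), from 630, 535 and 511 CPM in WT_EV to 7.01 and 12.3. With the offsets it was at -0.75 in DXp and -1.62 in DXp_DXm, both called. Rps19, the gene most often mutated in Diamond-Blackfan anaemia, changed by -4.79 (SE 0.29) in DXp and -4.74 (SE 0.29) in DXp_DXm, both called.

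Rpl5 and Rpl11 join the 5S ribosomal RNA in one particle, which also binds Mdm2 when ribosome assembly fails. Without offsets for GC content and length, the 2 genes went opposite ways. Rpl5, on the plus strand of chromosome 5 at 107900502 to 107909005, had 925, 658 and 715 CPM in WT_EV, 1893 and 1620 in DXp, and 1209 and 1633 in DXp_DXm. Its log2 change was 1.2 (SE 0.25, adjusted p 0.0016) in DXp and 0.89 (SE 0.25, adjusted p 0.00963) in DXp_DXm. With per-library offsets for GC content and length it was -0.13 (adjusted p 0.681) and -0.23 (adjusted p 0.492), so the call was lost and the sign turned. In DXp_DXm the call was also lost without WT_EV replicate 2 (0.77, adjusted p 0.0501) and without DXp_DXm replicate 2 (0.67, adjusted p 0.0901). Rpl11 had 316, 257 and 259 CPM in WT_EV, 32.7 and 37.3 in DXp, and 73.4 and 69.6 in DXp_DXm. Its log2 changes were -2.98 (SE 0.22) and -1.96 (SE 0.22), both called. With the offsets they were -1.17 and -0.51, and the call in DXp_DXm was lost (adjusted p 0.0584). All 4 deletion libraries were above WT_EV for Rpl5 and below it for Rpl11.

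The other members called higher in DXp were Rpl22l1, Rpl39 and Rps27a, and the members called higher in DXp_DXm were Rpl22l1, Rps27a, Rpl39 and Rpl5. Rpl22l1, the paralogue of Rpl22, lies on the plus strand of chromosome 3 at 28805436 to 28807424. Rpl22l1 had 41.0, 62.1 and 35.3 CPM in WT_EV, 529 and 373 in DXp, and 222 and 306 in DXp_DXm. All 4 deletion libraries lay above WT_EV. The rise was 3.29 in DXp on the log2 scale (95% interval 2.62 to 3.96, SE 0.30, adjusted p 1.05e-05) and 2.52 in DXp_DXm (SE 0.30, adjusted p 6.31e-05). With the offsets it kept its call, at 2.43 (adjusted p 0.000244) and 1.75 (adjusted p 0.00157). Rpl39, a small protein of the peptide exit tunnel, is X-linked. It had 191, 221 and 176 CPM in WT_EV, 522 and 495 in DXp, and 441 and 542 in DXp_DXm, changes of 1.38 (SE 0.22) and 1.33 (SE 0.22). With the offsets they were 1.93 and 1.57, both called. Rps27a encodes a small subunit protein fused to ubiquitin. It had 435, 430 and 398 CPM in WT_EV, 539 and 961 in DXp, and 1262 and 1142 in DXp_DXm, with changes of 0.83 (SE 0.27, adjusted p 0.0161) and 1.51 (SE 0.27, adjusted p 0.000645). The 2 DXp libraries were far apart. With the offsets the DXp_DXm change was 0.80 (adjusted p 0.0405) and the DXp change 0.07 (adjusted p 0.843). Without DXp replicate 2 it was 0.37 (adjusted p 0.234).

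**Figure D3:**
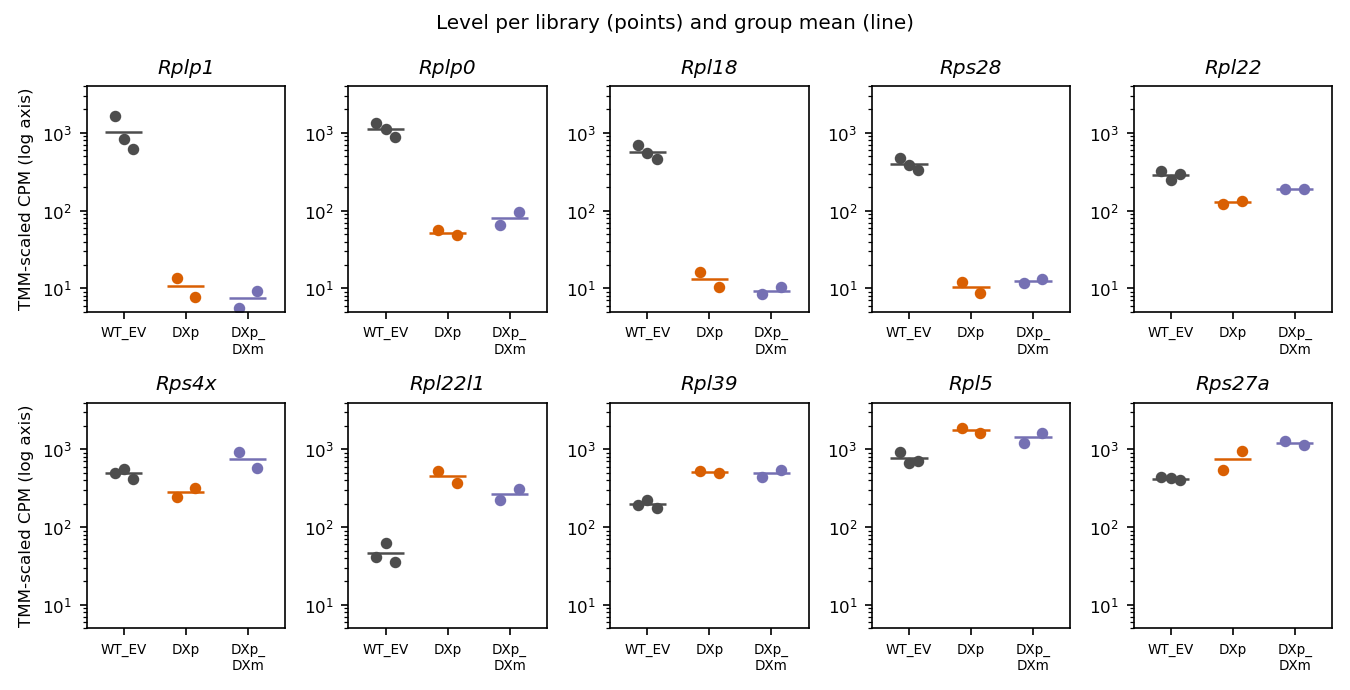
TMM-scaled CPM (log axis) of 10 members in each library (points) with group means (lines) for WT_EV (n = 3), DXp (n = 2) and DXp_DXm (n = 2). Rplp1, Rplp0, Rpl18 and Rps28 are low in every deletion library, while Rpl22l1, Rpl39, Rpl5 and Rps27a are above every WT_EV library.

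The 5 members not called in DXp, named after their values were seen except Rpl24, were Rpl9, Rps15a, Rpl23, Rpl30 and Rpl24. Their log2 changes were -0.44 (SE 0.25), -0.24 (SE 0.25), 0.29 (SE 0.21), 0.34 (SE 0.24) and 1.0 (SE 0.44). None of them was called in DXp_DXm, where the changes ran from 0.08 for Rpl9 to 0.73 for Rpl24. With the offsets, Rpl24 was called higher (2.34 and 1.64), and Rps15a (-1.36 and -0.65) and Rpl30 (-1.19 and -0.95) were called lower in both groups. Rpl24 rested on 30 to 95 counts per library. Rps3a1, among the 3 members with the highest mean level per kb, had 540, 457 and 492 CPM in WT_EV, 263 and 368 in DXp, and 784 and 599 in DXp_DXm. It was called lower in DXp, at -0.66 (SE 0.24, adjusted p 0.0345), and not in DXp_DXm, at 0.48 (SE 0.24, adjusted p 0.102). The offsets changed both calls: Rps3a1 was at -0.15 (adjusted p 0.571) in DXp and at 0.71 (adjusted p 0.023, called higher) in DXp_DXm. Both are changes from WT_EV, and the levels of Rps3a1 in the wild-type clones are given below. Its DXp call was lost without DXp replicate 1 (-0.32, adjusted p 0.356) and without WT_EV replicate 1 (-0.61, adjusted p 0.0816).

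The 4 X-linked members did not move as one. Beside Rpl39, Rpl10, which joins the large subunit in its last assembly step, had 486, 468 and 469 CPM in WT_EV, 98.3 and 251 in DXp, and 324 and 252 in DXp_DXm. Its change was -1.44 (SE 0.34, adjusted p 0.00478) in DXp and -0.72 (SE 0.34, adjusted p 0.0931) in DXp_DXm, where the offsets gave a call (-1.11, adjusted p 0.0264). Rps4x, a small subunit protein, had 500, 557 and 417 CPM in WT_EV, 245 and 314 in DXp, and 922 and 580 in DXp_DXm. It was called lower in DXp, at -0.81 (SE 0.27, adjusted p 0.0213), and lay above WT_EV in both DXp_DXm libraries, at 0.61 (SE 0.27, adjusted p 0.062). The DXp call of Rps4x was lost with the offsets (-0.37, adjusted p 0.231), without DXp replicate 1 (-0.53, adjusted p 0.195) and without WT_EV replicate 2 (-0.74, adjusted p 0.0625). With the offsets it was called higher in DXp_DXm than in WT_EV (0.76, adjusted p 0.028). Its levels in the wild-type clones are given below. Rpl36a had 241, 194 and 163 CPM in WT_EV, 48.7 and 49.9 in DXp, and 64.8 and 58.0 in DXp_DXm, with changes of -2.01 (SE 0.24) and -1.70 (SE 0.24), both called. In the fit with offsets Rpl36a was at -1.41 and -1.42, both called. Reads of both X chromosomes were counted together, so the alleles could not be told apart.

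The paralogues were set beside their partners as a percent of the partner's CPM per kb. Rpl22, an RNA-binding protein of the large subunit, was lower in both deletion groups. Its change was -1.18 (SE 0.22) in DXp and -0.60 (SE 0.22, adjusted p 0.0347) in DXp_DXm. The offsets moved the DXp change to -0.69 (adjusted p 0.0204), still called. With the offsets the DXp_DXm call was lost (-0.41, adjusted p 0.134), as it was without WT_EV replicate 1 or either DXp_DXm library (-0.58 to -0.52, adjusted p 0.0969 to 0.157). Rpl22l1 stood at 18.4, 37 and 17.2% of Rpl22 in WT_EV, 635 and 409% in DXp, and 170 and 235% in DXp_DXm. Its level per kb, without offsets, was thus below that of Rpl22 in every WT_EV library and above it in every deletion library. With the offsets Rpl22l1 rose by 2.43 in DXp and 1.75 in DXp_DXm, instead of 3.29 and 2.52. The ratio to Rpl22 then still rose, but by less. Whether Rpl22l1 would then stand above Rpl22 was not tested. Rps27l, a p53 target gene, stood at 124 ± 33.9% of Rps27 in WT_EV (SD, n = 3), 426 ± 111% in DXp (n = 2) and 240 ± 0.960% in DXp_DXm (n = 2). Rps27 changed by -2.95 (SE 0.30) in DXp and -1.25 (SE 0.29) in DXp_DXm, and Rps27l by -1.16 (SE 0.27) in DXp, all called. In DXp_DXm Rps27l changed by -0.24 (SE 0.27, adjusted p 0.449). With the offsets Rps27l was at -1.72 (adjusted p 0.00142) in DXp and -0.71 (adjusted p 0.0698) in DXp_DXm. The ratio of Rps27l to Rps27 then no longer rose, since Rps27 was at 0.03 (adjusted p 0.941) and at 1.38 (adjusted p 0.00274, called higher). The direction of Rps27 thus rests on the processing. Without DXp_DXm replicate 2 its change in DXp_DXm was -0.90 (adjusted p 0.0542).

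Of the other paralogues, Rpl7l1 stood at 9.12 ± 0.942% of Rpl7 in WT_EV (n = 3), 10.2 ± 7.65% in DXp (n = 2) and 5.95 ± 2.26% in DXp_DXm (n = 2). Rpl36al was at 1.58 to 2.27% of Rpl36a in the group means. Rps27rt, a retrogene close in sequence to Rps27, was at 6.14 to 14.0% of it. The latter 2 rested on 14 to 69 and 23 to 148 counts per library, and reads of near-identical copies may be split between them. Rpl3l, the muscle form of Rpl3, had at most 2 counts in any library. Rpl10l, the retrogene of Rpl10 known from the testis, had 0 and Rpl39l at most 1.

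The change of a member went with the GC content of its longest transcript, which ran from 39.1 to 62.4% (median 50.9%). Across the 82 members Pearson's r was -0.65 and Spearman's rho -0.67 in DXp, and -0.64 and -0.67 in DXp_DXm. Across 11853 other protein-coding genes r was -0.72 in both. These are descriptions across genes measured in the same libraries. Between 48 and 54% GC, the 40 members had a median log2 change of -3.16 in DXp and 3738 other genes -0.78. At 54% or more, 22 members had -4.31 and 3176 others -3.39. Between 42 and 48%, 18 members had -1.32 and the others 1.27. Within each of these 3 classes the members' median lay below that of the other genes, in DXp_DXm too, where it was -0.64, -2.36 and -3.63 against 1.15, -0.48 and -2.98. The classes do not match the genes on length, whose median was 1739 bases in the members and 4547 in the others. Pearson's r of the change with log2 length was 0.25 (DXp) and 0.28 (DXp_DXm) in the members, and 0.34 and 0.32 in the others.

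**Figure D4:**
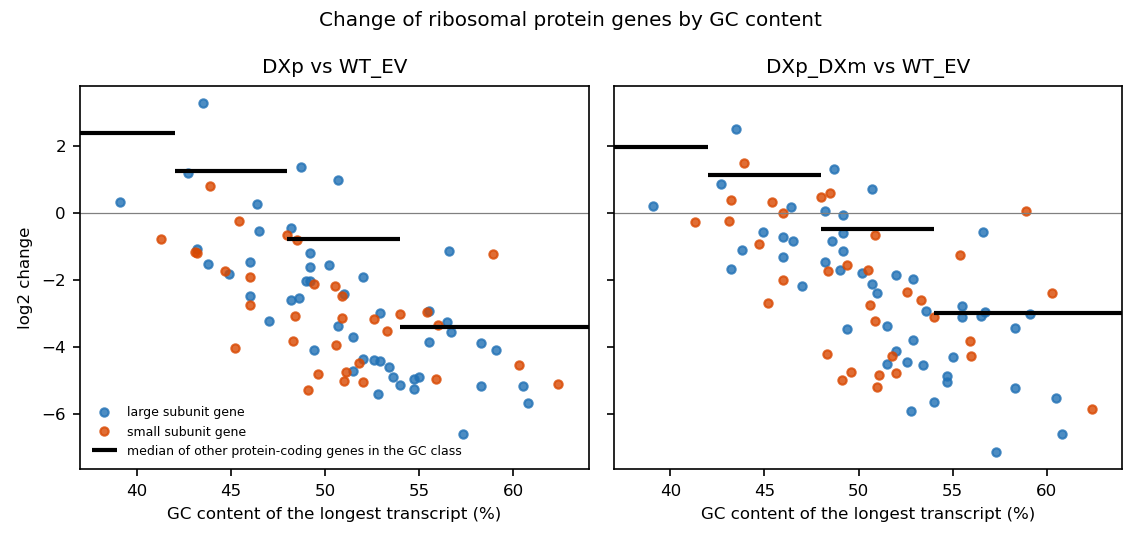
Log2 change of each tested member against the GC content of its longest transcript, for DXp minus WT_EV (left) and DXp_DXm minus WT_EV (right). Black lines are medians of other protein-coding genes in GC classes with edges at 42, 48 and 54%. Between 48 and 54% GC the members' median in DXp is -3.16 and that of the other genes -0.78.

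With offsets for GC content and length in each library, fewer members were called lower. In DXp 60 of 82 were lower (73.2%) and 5 higher, where 26.7% of all genes were lower and 24.9% higher, and the members' median was -1.59. In DXp_DXm 52 were lower (63.4%) and 11 higher, where 21.7% of all genes were lower and 21.9% higher, with a median of -1.22. Of the members called lower without offsets, 4 turned sign in DXp and 3 in DXp_DXm. Those in DXp, named after their values were seen except Rps27, were Rps27, Rpl38, Rps6 and Rpl14, at 0.03, 0.06, 2.36 and 2.01. Those in DXp_DXm were Rps27, Rpl38 and Rps10, at 1.38, 0.91 and 1.2. The stalk genes stayed lower: Rplp1 was at -2.62 and -3.50, Rplp0 at -2.40 and -2.17, and Rplp2 at -2.27 and -1.99, all called. Rpl12 was at -1.49 and -1.76, also called. With the offsets the lowest members in DXp were Rps28 at -4.64, Rps12 at -4.53 and Rps19 at -4.48.

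Genes related in function were counted from fixed lists. Fau and Rack1 encode ribosomal proteins that the naming rule leaves out, and both fell in both deletion groups. Fau changed by -5.83 (SE 0.37) and -5.30 (SE 0.37), and Rack1 by -4.33 (SE 0.30) and -4.28 (SE 0.30). The offsets moved Fau to -1.83 and -1.51 and left Rack1 at -4.39 and -4.53. Of 13 other genes with TOP mRNAs, 5 rose and 7 fell in DXp, and 6 rose and 6 fell in DXp_DXm. Both counts stand beside the 32.2% of all genes called higher and 40.1% lower in DXp, and 30.9% and 36.0% in DXp_DXm. With the offsets the list's median in DXp turned from -0.66 to 0.13. The elongation factor genes Eef2, at -3.92 (SE 0.28), and Eef1a1, at -2.79 (SE 0.28), fell in DXp. Tpt1, at 2.76 (SE 0.28), and Pabpc1, the poly(A)-binding protein gene, at 2.67 (SE 0.32), rose there. With the offsets Eef2 was at -0.94, Eef1a1 at -2.77, Tpt1 at 4.73 and Pabpc1 at 1.39.

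Of 45 genes of ribosome assembly and rDNA transcription, 8 rose and 26 fell in DXp (median -1.88), and 8 rose and 23 fell in DXp_DXm (median -0.97). Of 77 tested mitochondrial ribosomal protein genes, 8 rose and 57 fell in DXp (median -1.88), and 10 rose and 37 fell in DXp_DXm (median -0.77). With the offsets for GC content and length, the assembly list had 3 higher and 33 lower in DXp and the mitochondrial list 10 and 51, where 24.9% of all genes were higher and 26.7% lower. Without offsets, all genes tested had 32.2% higher and 40.1% lower in DXp (median -0.35), and 30.9% and 36.0% in DXp_DXm (median -0.15). Processed copies with a -ps symbol held 2.57 ± 0.275 counts per 100 member counts in WT_EV (SD, n = 3), 1.42 ± 0.149 in DXp (n = 2) and 1.83 ± 0.210 in DXp_DXm (n = 2). Members with a small nucleolar RNA gene inside (30) and those without (52 tested) had medians of -2.80 and -3.16 in DXp. With the offsets the order turned, to -2.01 and -1.38.

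Between the deletion groups, 3 members were called higher in DXp_DXm than in DXp, and 0 lower, of 82. Of all genes tested, 0.280% were called higher and 0.163% lower. At an unadjusted edgeR p under 0.05, 32 members were higher and 3 lower, where 12.0% of all genes were higher and 8.81% lower. DESeq2 called 21 members higher and 0 lower, where it called 4.23% of the 12941 genes with an adjusted p higher and 4.79% lower. The members' median log2 change was 0.48, against 0.02 for all genes, and 22 members were at least 2-fold higher. The upper quartile was 1.04 in the members and 0.63 in all genes. Both DXp_DXm libraries lay above both DXp libraries in 45 members and below in 6, where 27.2% of all genes lay above and 23.2% below. The small subunit had a median of 0.74 and the large subunit 0.24. With the offsets they were 0.71 and -0.10, so the sign of the large subunit turned. That difference was not tested.

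The 3 called members were Rpl21, Rps25 and Rps12, of which the last 2 were named after their values were seen. Rpl21, a large subunit gene, had 54.8 and 111 CPM in DXp, 335 and 311 in DXp_DXm, and 381, 299 and 327 in WT_EV. DXp_DXm thus lay within the range of WT_EV, and the change from DXp was 1.96 (SE 0.32, adjusted p 0.0424). Its call was lost without any 1 of the 4 deletion libraries, at 1.51 to 2.56 (adjusted p 0.0568 to 0.228). Rps25, a small subunit protein used by several viral internal ribosome entry sites, had 69.3 and 112 CPM in DXp and 380 and 261 in DXp_DXm, a change of 1.82 (SE 0.30, adjusted p 0.0424). Rps12 had 43.6 and 45.7 CPM in DXp and 123 and 103 in DXp_DXm, a change of 1.34 (SE 0.23, adjusted p 0.0473). With the offsets none of the 82 was called, while 29 were higher and 5 lower at an unadjusted p under 0.05, where 10.7% of all genes were higher and 8.47% lower. There, 0.137% of all genes were called higher and 0.0980% lower. The 3 genes then changed by 1.71, 1.46 and 1.31, each in the same direction as before (adjusted p 0.0529, 0.0529 and 0.055).

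Other members at the ends of this comparison did not pass. Rps10 was at 2.16 (SE 0.61) on 7 to 62 counts in the 4 libraries. Rpl13a, known for translational control in the interferon response, was at 1.96 (SE 0.36, adjusted p 0.0565), with 4.24 and 5.79 CPM in DXp and 23.6 and 15.7 in DXp_DXm. Rps27rt was at 1.92 (SE 0.54). At the low end Rpl36 was at -0.92 (SE 0.42), Rps14 at -0.90 (SE 0.32), Rpl22l1 at -0.77 (SE 0.33) and Rps15 at -0.74 (SE 0.32). For Rps14, Rpl22l1 and Rps15 both DXp_DXm libraries lay below both DXp libraries.

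The WT_clone libraries gave a second wild type, in a table held in part that shared 11512 genes with the first. It listed 14 members, all tested among 3302 genes, to which the shares of all genes here refer. The 14 lie on chromosomes 1, 2, 3 and X and include all 4 X-linked members, so they are not a general sample of the 85. They took 2.11 and 5.63% of the shared counts in clones 1 and 2, 4.05 to 5.2% in WT_EV, 0.794 and 1.02% in DXp, and 1.63 and 1.43% in DXp_DXm. The 2 clones were thus far apart, and clone 1 lay between the deletion libraries and WT_EV. Of the 14, 0 were called higher and 1 lower in WT_clone against WT_EV, where 15.3% of all genes were higher and 15.4% lower. At an unadjusted edgeR p under 0.05, 3 were higher and 2 lower, where 22.2% of all genes were higher and 22.4% lower. The 1 called lower was Rpl37a, a large subunit gene named after its value was seen, at -1.39 (SE 0.45, adjusted p 0.0475). The median change was 0.15. Small nuclear and nucleolar RNA genes (642) held 115 and 139 counts per 1e+06 shared counts in the clones, 184 to 247 in the deletion libraries and 2379 to 2879 in WT_EV. The clones were low in these RNAs too.

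Against WT_clone, 12 of the 14 members were called lower in DXp and 0 higher, with a median log2 change of -2.42. Of all genes tested there, 25.0% were lower and 15.2% higher. In DXp_DXm 7 of the 14 were lower and 0 higher, with a median of -1.87, against 17.6% and 7.36% of all genes. At an unadjusted edgeR p under 0.05, 0 of the 14 were higher in either comparison, where 20.3 and 14.4% of all genes were. At this cut 12 and 9 were lower, where 29.2 and 23.9% of all genes were. The fit with GC and length offsets called 9 of the 14 lower in DXp (median -1.65) and 6 in DXp_DXm (median -1.53), and 0 higher in either. Of 3297 genes in that fit, 349 were lower and 171 higher in DXp, and 161 and 68 in DXp_DXm. Rpl7a, a large subunit gene chosen after its values were seen, had 2690 and 4486 CPM of shared genes in the clones, 182 and 113 in DXp, and 151 and 183 in DXp_DXm, changes of -4.60 (SE 0.37) and -4.43 (SE 0.37). Rpl36a had 660 and 1364 in the clones, 213 and 221 in DXp, and 273 and 256 in DXp_DXm, changes of -2.22 (SE 0.35) and -1.94 (SE 0.35). Both were low in all 4 deletion libraries.

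Rpl22l1 and Rpl39 did not pass against the clones, which differed from each other. Rpl22l1 had 189 and 1349 CPM of shared genes in clones 1 and 2, 203 to 354 in WT_EV, 2315 and 1648 in DXp, and 936 and 1351 in DXp_DXm. The second clone lay within the range of the DXp_DXm libraries and the first below all 3 WT_EV libraries. The log2 change against WT_clone was 1.37 (SE 0.69, adjusted p 0.148) in DXp and 0.57 (SE 0.69, adjusted p 0.582) in DXp_DXm. Rpl39 had 458 and 2301 in the clones, 1012 to 1256 in WT_EV, 2284 and 2191 in DXp, and 1857 and 2390 in DXp_DXm. Its change against WT_clone was 0.70 (SE 0.55, adjusted p 0.338) and 0.62 (SE 0.55, adjusted p 0.443). Rps4x, Rps3a1 and Rps27 were called higher in DXp_DXm than in WT_EV only with the offsets. In the clones Rps4x had 3512 and 7471, Rps3a1 3020 and 6490, and Rps27 432 and 2108. In DXp_DXm they had 3879 and 2559, 3300 and 2639, and 449 and 278. Without the offsets all 4 small subunit members of the 14 were below 0 in DXp_DXm against WT_clone, and with the offsets 3 were. How many of the 14 members were called lower in DXp_DXm depended on which clone was left out. The share of all genes called in those fits is not given, so the counts were not set against it.

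**Figure D5:**
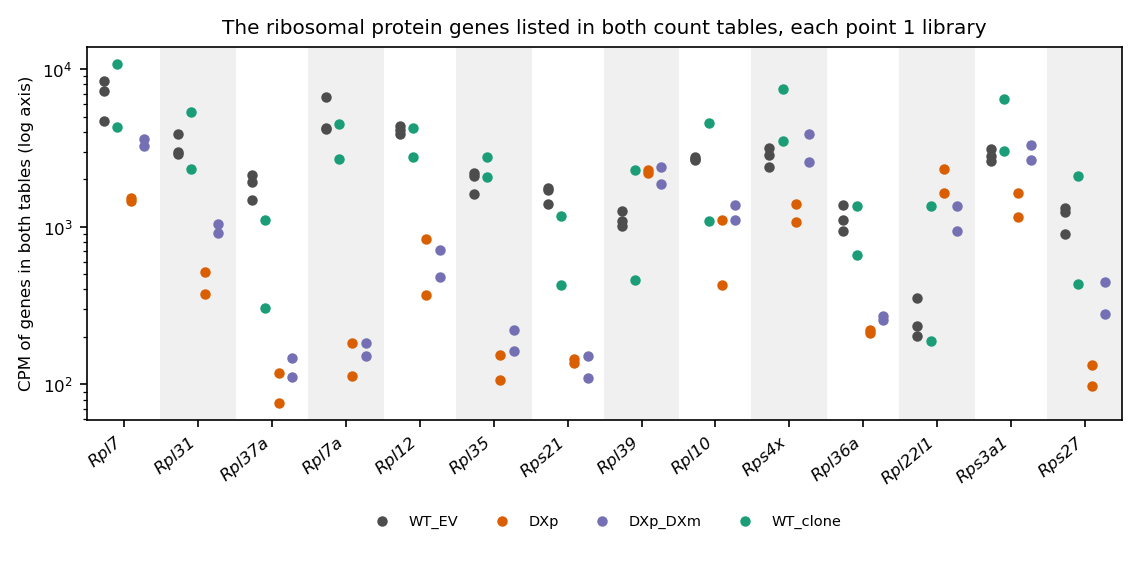
CPM of shared genes (log axis) for the 14 members listed in both tables, with 1 point per library: WT_EV (n = 3), WT_clone (n = 2), DXp (n = 2) and DXp_DXm (n = 2). The clones span 189 to 1349 for Rpl22l1 and 458 to 2301 for Rpl39, while Rpl7a, Rpl35 and Rpl31 are lower in every deletion library than in every wild-type library.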

How the data were processed

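The authors deposited 2 tables of raw counts, with 1 value per gene and library. Per the submitters' processing notes, FastQC, STAR 2.7.9a, featureCounts 2.0.1 and GRCm38 (mm10) were used. The strand setting, the handling of reads with several positions and the annotation release were not given in the sources used here. Gene lengths are those deposited by the authors. Symbols, biotypes and GC content came from GENCODE M21, in which 55141 of 55401 genes had a symbol.

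Counts were filtered (filterByExpr), TMM-scaled and tested in edgeR 4.0.16 (R 4.3.3) with glmQLFit (robust) and group as the term: 15331 genes over 7 libraries (40070 not tested), and 3302 genes of both tables over 9. The biological coefficient of variation was 33.7% and 39.3%. Intervals are Wald intervals. Offsets were splines (5 df) on GC content and length per library. DESeq2 1.42.0 was an alternative. The steps were tested on simulated data. The precision rests on 2 or 3 libraries per group.

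The members and lists were chosen with earlier results of these data known. Named members were the 4 highest and 4 lowest changes per comparison of the 7 libraries, X-linked members, paralogues with their partners, stalk and 5S members, Rps27a, the 3 highest levels per kb and the 3 lowest among canonical members. Others are marked. One gene of a related list is not reported here.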

Additional observations from a re-analysis of the deposited data

Results flagged for a closer look

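Rpl21, Rps25 and Rps12 differed between the 2 deletion groups in the test of the difference itself. Relative to DXp, the log2 change in DXp_DXm was 1.96 for Rpl21, 1.82 for Rps25 and 1.34 for Rps12, each with both DXp_DXm libraries above both DXp libraries. None of the 3 kept its call (edgeR, adjusted p under 0.05) with offsets for GC content and length.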

How the results depend on the processing

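Relative to WT_EV, the 2 counts of members called lower stayed within 1.5 times of 73 and 60 under every alternative run, with 60 (DXp) and 52 (DXp_DXm) under the GC and length offsets as the lowest. The members' median in DXp was -2.88 with RLE size factors and with DESeq2, -2.89 with the libraries of the 2 groups only, -1.59 with the offsets and -3.11 to -2.86 when 1 library was left out. In DXp_DXm it was -1.22 with the offsets, which called 11 members higher, and -2.31 to -2.08 when 1 library was left out. With the offsets the sign of Rps27 turned to 0.03 and 1.38, that of Rpl5 to -0.13 and -0.23, and that of Rps10 in DXp_DXm to 1.2; the cause was not tested.

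In DXp_DXm against DXp, 21 members were higher with DESeq2 and 23 without the filter on low counts, 0 with the offsets (median 0.24), 0 with the libraries of these 2 groups only, and 0 without DXp replicate 1, DXp replicate 2 or DXp_DXm replicate 1, up to 4 without DXp_DXm replicate 2. Where 1 library was left in a group, it was assumed to vary like the others. Each DXp title carries 2 numbers that conflict, and the one after "rep" was used. With it, same-numbered libraries had correlated deviations of -0.0657 (WT_EV and DXp), 0.0818 (WT_EV and DXp_DXm) and -0.2011 (DXp and DXp_DXm) over 15331 genes, and the numbers were not taken to pair the libraries. With this number as a replicate block 0 members were higher, and the comparisons with WT_EV gave 3 higher and 71 lower in DXp and 4 and 59 in DXp_DXm. Using the other number of the DXp titles turns the sign of both correlations that involve DXp by construction, so that all are positive. With that number as the block, a fit added after seeing the data, 21 were higher and 1 lower. Which number is right is not known, so neither block result is preferred. Apart from DESeq2 and the offsets, the share of all genes called in these alternative fits is not given. The counts of members called there could not be set against it.

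Of the 14 members in both tables, the offsets gave 2 higher and 0 lower in WT_clone against WT_EV, where 427 and 398 of 3297 genes were. Leaving out 1 library gave 0 to 4 higher (4 without the first clone) and 0 to 4 lower (4 without the second clone, 0 without any WT_EV library or the first clone). Against WT_clone it gave 0 to 2 higher in DXp and in DXp_DXm (2 without the second clone), and 6 to 12 lower in DXp_DXm (12 without the first clone). The share of all genes called when 1 library was left out is not given, so these counts have no such standard. Depth limits Rpl24, Rps10, Rpl36al and Rps27rt most.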
